A study of Mus musculus with 12 samples.

Results

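Gene expression in the hippocampus was compared with that in the cortex of sham mice, in 6 libraries chosen by their labels alone, 3 of the hippocampus and 3 of the cortex, of 12 libraries in the whole series. The mice were male C57BL/6, bought at an age of 7 weeks and given 1 week to acclimatize, and their tissues were taken 3 months after a sham treatment without radiation (Con). The labels name no transgene or other altered allele. The other 6 libraries came from the same tissues of male C57BL/6 mice that had received a single cranial dose of 10 Gy (IR), and they served to repeat the comparison in libraries it had not used. Each library lists a value for 23183 gene symbols in FPKM, fragments counted per kilobase of transcript, relative to all fragments mapped in that library. Column names carry one ending for the cortex files and another for the hippocampus files, so a tissue difference and a difference between processing runs cannot be told apart. The labels tie no hippocampus library to a cortex library of the same mouse and do not say whether a library pooled mice, and p values therefore measure the spread between these libraries only.

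The cortex and the hippocampus are both parts of the pallium and share their main cell classes, which are glutamatergic projection neurons, GABA interneurons, astrocytes, oligodendrocytes, microglia and vessels. Their projection neurons differ. The neocortex stacks them in layers with distinct targets, from the corticocortical cells of the upper layers to the subcerebral and corticothalamic cells of the deep layers, whereas the hippocampus places the granule cells of the dentate gyrus and the pyramidal cells of the fields CA3, CA2 and CA1 in a mostly one-way circuit known for its part in memory and spatial coding.

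A gene was tested when it reached 0.5 FPKM in at least 3 of the 6 sham libraries, which held for 14169 genes. It was called when the adjusted p from limma on log2(FPKM + 1) was under 0.05 and the fold on that scale was at least 1.5. By this rule 961 genes (6.78% of those tested) were higher in the hippocampus and 987 (6.97%) were higher in the cortex, 1948 genes or 13.7% in all. These shares over all genes tested are the ones to set beside the counts of every gene list below. With a fold of at least 2 there were 353 and 392 genes, and with a fold of at least 4 there were 62 in each direction. Small differences were common as well, since the 3 hippocampus and 3 cortex values did not overlap in 49.8% of the genes tested and 5147 genes (36.3%) had an adjusted p under 0.05 at any fold. The median log2 difference (hippocampus minus cortex) over all genes tested was 0.02, with 5% of the genes below -0.74 and 5% above 0.72. A positive log2 difference means a higher value in the hippocampus throughout, and because 1 FPKM was added to each value it understates the change of genes with a low FPKM. Among the calls were 75 genes higher in the hippocampus that stayed under 0.5 FPKM in all cortex libraries and 94 of the reverse kind, and these passed the filter only through the tissue in which they were high.

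**Figure D1:**
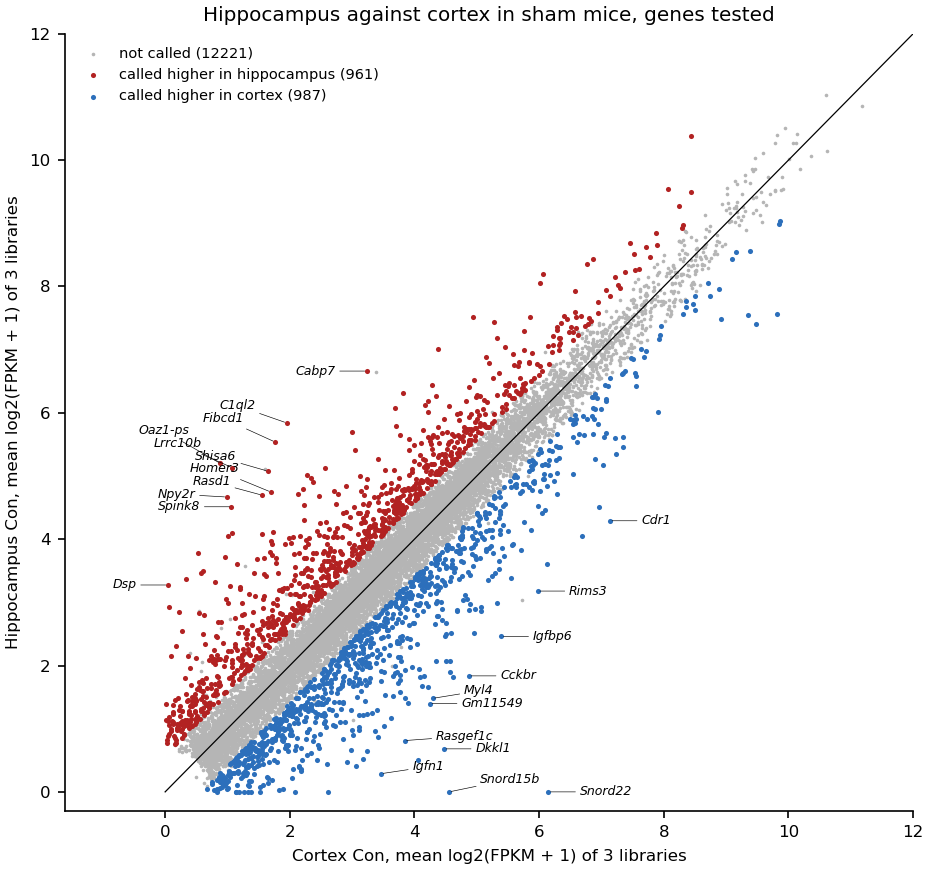
Mean log2(FPKM + 1) of the 3 cortex Con libraries (horizontal axis) and the 3 hippocampus Con libraries (vertical axis) for the 14169 genes tested, with the line of equal values. The 961 genes called higher in the hippocampus (red) and the 987 called higher in the cortex (blue) lie on both sides of the line over the whole range of levels, and the 22 genes named are among those with the largest differences.

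The libraries of a tissue resembled each other more than those of the other tissue. Over the genes tested, Pearson's r of log2(FPKM + 1) was 0.993 to 0.994 within the cortex, 0.988 to 0.990 within the hippocampus and 0.949 to 0.963 between the tissues. No read counts were used, so the depth in reads is unknown. FPKM summed to between 359773 and 393447 per library. Hippocampus Con 2 stood apart in genes of the choroid plexus, the epithelium that makes cerebrospinal fluid and that borders the hippocampus: its 13 listed marker genes summed to 1119 FPKM there, against 27.8 and 76.7 FPKM in Con 1 and Con 3 and 5.99 to 35.5 FPKM in the cortex libraries. None of the 13 was at 0 in all libraries of a tissue.

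The 12 genes with the largest differences in the hippocampus held genes of the dentate gyrus and of CA1 and several proteins of synapses. *C1ql2*, a secreted C1q-like protein that organizes glutamate receptors at the mossy fibre synapses of granule cells, was listed at 70.7, 57.8 and 43.6 FPKM in the hippocampus and 2.13, 2.96 and 3.63 FPKM in the cortex (log2 difference 3.89, SE 0.19, adjusted p = 3.07e-06). Every hippocampus value lay far above every cortex value. *Fibcd1*, a membrane receptor of pyramidal cells of CA1, had 46.8, 42.4 and 47.5 FPKM in the hippocampus and 1.73, 3.87 and 1.93 FPKM in the cortex (log2 difference 3.78, SE 0.20, adjusted p = 4.29e-06). The tissues did not overlap, and cortex Con 2 had the highest of the cortex values. *Lrrc10b*, which codes for a leucine-rich repeat protein, was at 34.9, 37.4 and 30.2 FPKM in the hippocampus and 0.830, 1.54 and 1.03 FPKM in the cortex (log2 difference 4.05, SE 0.13, adjusted p = 1.52e-07), 30.2 times higher by the ratio of mean FPKM. *Npy2r*, the Y2 receptor of neuropeptide Y, was at 23.7, 26.3 and 23.3 FPKM in the hippocampus and 0.824, 0.858 and 1.29 FPKM in the cortex (log2 difference 3.68, SE 0.11, adjusted p = 1.4e-07), again in 2 well separated groups. *Shisa6*, an auxiliary subunit of AMPA-type glutamate receptors, reached 30.1, 32.5 and 35.8 FPKM in the hippocampus against 1.83, 2.47 and 2.15 FPKM in the cortex (log2 difference 3.43).

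Other hippocampal genes of this rank were *Spink8* (3.45), a protease inhibitor of CA1 cells that ranged from 0.239 to 2.57 FPKM in the cortex, *Cabp7* (3.43), a calcium-binding protein, *Dsp* (3.23), the desmosomal protein desmoplakin, *Rasd1* (3.14), a Ras-like GTPase induced by glucocorticoids, and *Homer3* (3.05), a postsynaptic scaffold protein that binds metabotropic glutamate receptors. The values in brackets are log2 differences. *Dsp* shows how the added 1 FPKM compresses a change: it was listed at 5.94, 12.1 and 8.97 FPKM in the hippocampus and 0.0235, 0.0236 and 0.0411 FPKM in the cortex, a ratio of means of 306 but a fold of 9.4 on the scale of the test. The gene at the top of the list, *Oaz1-ps*, is a pseudogene of ornithine decarboxylase antizyme. It was listed at 35.9, 24.4 and 51.9 FPKM in the hippocampus and at 0.0158, 5.13 and 0.0150 FPKM in the cortex, with a log2 difference of 4.31 and an SE of 0.87, while its parent gene *Oaz1*, named after its values were seen, was at 210.4, 226 and 158 FPKM in the hippocampus and 216, 227 and 209.9 FPKM in the cortex (log2 difference -0.15, SE 0.13, adjusted p = 0.386). The counting could split reads between such a pair, and the value of the pseudogene is uncertain. When single libraries were omitted, no call remained for *Oaz1-ps* (without cortex Con 1 or 3 or hippocampus Con 1, 2 or 3, adjusted p 0.0515 to 0.0753). It was not called with a pseudocount of 0.1 or with a replicate block given by the library number either.

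In the cortex the genes with the largest differences were of more mixed kinds. *Dkkl1*, a secreted relative of the Dickkopf proteins that act on Wnt signaling, was listed at 25.7, 20.1 and 18.5 FPKM in the cortex and 0.612, 0.510 and 0.693 FPKM in the hippocampus (log2 difference -3.79, SE 0.12, adjusted p = 1.52e-07). The cortex mean was 35.4 times the hippocampus mean. *Cckbr*, the B receptor of cholecystokinin, had 30.3, 26.7 and 28.0 FPKM in the cortex and 2.85, 2.08 and 2.84 FPKM in the hippocampus (log2 difference -3.04, SE 0.104, adjusted p = 1.69e-07). In both genes every cortex value lay far above every hippocampus value. *Rims3*, a small RIM protein of the presynaptic active zone, was the most abundant of the protein genes next to *Cdr1*, with 70.3, 55.8 and 60.7 FPKM in the cortex and 8.61, 7.32 and 8.28 FPKM in the hippocampus (log2 difference -2.80, SE 0.099, adjusted p = 1.72e-07).

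Further cortical genes of this rank were *Igfn1* (-3.18), an immunoglobulin and fibronectin domain protein, *Rasgef1c* (-3.03), an exchange factor of Ras proteins, *Igfbp6* (-2.93), which binds insulin-like growth factors, *Gm11549* (-2.85), which has no named product, *Cdr1* (-2.84) and *Myl4* (-2.81), a myosin light chain. *Cdr1* overlaps the antisense RNA *Cdr1as*, and although the kit was a directional one it is not stated whether counting used strand, so the reads of the 2 genes cannot be told apart. Its hippocampus values were 11.97, 15.0 and 35.3 FPKM, the widest spread among these genes. Both genes at the top of the cortical list are small nucleolar RNAs. *Snord22* was listed at 40.1, 106 and 80.3 FPKM in the cortex and at 0 in the 3 hippocampus libraries, and *Snord15b* at 49.2, 32.2 and 6.81 FPKM and at 0. Such short RNAs are poorly covered by libraries of fragmented RNA, 112 of the 119 listed ones did not pass the filter, and neither of these genes was called in irradiated mice. Both are at 0 in the hippocampus and so failed the filter when any 1 of the cortex libraries was left out, and with the replicate block *Snord15b* was not called (adjusted p = 0.0519). The call was lost on omission of 1 library for *Snord15b* (without hippocampus Con 1, adjusted p 0.0503).

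The 250 bases before the start that the RefSeq table uses are shown for the 3 genes of highest rank in each direction that have exactly 1 promoter in the RefSeq table (GRCm38.p6, the assembly of mm10), because these are the promoters of the genes that separated the tissues most. They are written 5′ to 3′ on the strand of the gene, and capitals mark the letters CAGATG or CATCTG (an E-box of the kind bound by neuronal bHLH factors such as those of the *Neurod* family), TGACGTCA (the cAMP response element) and GGGCGG or CCGCCC (the GC box), searched on both strands.
Lrrc10b, chr19:10457448-10457697, minus strand: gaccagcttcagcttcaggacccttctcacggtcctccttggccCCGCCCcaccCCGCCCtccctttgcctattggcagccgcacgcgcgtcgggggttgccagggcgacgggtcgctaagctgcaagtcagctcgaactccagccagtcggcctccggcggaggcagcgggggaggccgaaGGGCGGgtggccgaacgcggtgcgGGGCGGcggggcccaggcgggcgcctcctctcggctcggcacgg
C1ql2, chr1:120340332-120340581, plus strand: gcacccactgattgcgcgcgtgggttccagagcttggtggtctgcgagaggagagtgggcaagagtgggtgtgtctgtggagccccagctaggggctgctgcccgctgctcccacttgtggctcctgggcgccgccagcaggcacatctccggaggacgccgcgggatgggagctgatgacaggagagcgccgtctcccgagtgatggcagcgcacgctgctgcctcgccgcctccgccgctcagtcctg
Fibcd1, chr2:31846006-31846255, minus strand: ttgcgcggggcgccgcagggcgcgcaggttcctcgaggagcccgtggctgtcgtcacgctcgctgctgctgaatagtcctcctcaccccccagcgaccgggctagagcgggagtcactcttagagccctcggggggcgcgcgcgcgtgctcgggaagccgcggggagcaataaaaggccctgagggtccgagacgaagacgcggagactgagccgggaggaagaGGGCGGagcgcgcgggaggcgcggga
Dkkl1, chr7:45211884-45212133, minus strand: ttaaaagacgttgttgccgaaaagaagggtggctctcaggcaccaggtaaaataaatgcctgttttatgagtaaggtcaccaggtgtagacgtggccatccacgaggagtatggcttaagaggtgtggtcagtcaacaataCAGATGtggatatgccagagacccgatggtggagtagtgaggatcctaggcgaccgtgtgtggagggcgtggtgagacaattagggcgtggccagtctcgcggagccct
Igfn1, chr1:136006343-136006592, minus strand: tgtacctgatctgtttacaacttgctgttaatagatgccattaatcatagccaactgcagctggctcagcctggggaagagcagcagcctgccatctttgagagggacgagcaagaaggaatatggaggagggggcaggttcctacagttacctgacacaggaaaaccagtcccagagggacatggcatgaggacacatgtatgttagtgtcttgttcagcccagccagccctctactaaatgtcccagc
Cckbr, chr7:105425481-105425730, plus strand: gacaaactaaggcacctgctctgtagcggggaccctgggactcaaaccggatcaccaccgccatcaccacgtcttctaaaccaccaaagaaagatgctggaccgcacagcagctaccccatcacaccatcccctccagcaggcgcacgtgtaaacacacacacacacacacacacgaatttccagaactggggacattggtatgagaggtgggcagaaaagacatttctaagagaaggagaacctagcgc
The start used lay at the outer end of the annotated gene span in 2 of the 6 genes, and the span reached 959 bases further in *Fibcd1*, 282 bases further in *Dkkl1*, 34583 bases further in *Igfn1* and 55 bases further in *Cckbr*. The first 3 belong to genes higher in the hippocampus and the last 3 to genes higher in the cortex. Their content of G and C was 68.8 to 74.0% in the first 3 and 50.8 to 53.6% in the last 3, and the CG dinucleotide occurred 20 to 34 and 1 to 11 times. GC boxes stood in *Lrrc10b* (4) and *Fibcd1* (1), an E-box stood in *Dkkl1* (1), and no stretch held motifs of more than 1 kind. Of the 8505 tested genes with a single promoter entry, 9.51% had this E-box, 2.92% the cAMP response element and 61.0% a GC box in such a window. The shares were 11.4%, 0.554% and 63.1% among 542 genes called higher in the hippocampus and 10.1%, 2.05% and 56.2% among 536 called higher in the cortex. These shares describe letters in the sequence and were not tested.

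Genes known from single fields of the hippocampus were mostly higher in the hippocampus. Of 33 such genes tested, 24 (72.7%) were called higher in the hippocampus and 3 (9.09%) higher in the cortex, beside 6.78% and 6.97% of all genes tested. The median log2 difference was 1.22 against 0.02 over all genes tested. 5 of the 33 stayed under 0.5 FPKM in the cortex and passed the filter only through the hippocampus, so they could only be called higher there, and the lists were chosen with earlier results of these data known. Fewer cells of a type and less RNA per cell cannot be told apart in tissue RNA. The dentate granule cell list had 8 of 12 genes called higher in the hippocampus (median 1.43). *Prox1*, the transcription factor that sets granule cell identity, was listed at 14.4, 16.6 and 16.7 FPKM in the hippocampus and 1.93, 1.69 and 2.23 FPKM in the cortex (log2 difference 2.52, SE 0.101, adjusted p = 3.34e-07). The lactase gene *Lct* (3.03), *Tdo2* (2.13), which degrades tryptophan, and *Dock10* (1.64), a guanine nucleotide exchange factor, were among the 8. 3 of them, *Dsp*, *Lct* and *Tdo2*, were under 0.5 FPKM in every cortex library and so no longer passed the filter when a hippocampus library was left out, which brought the count to 5 without Con 1 or Con 2. The peptide precursor *Pdyn* went the other way, with 12.4, 10.1 and 9.89 FPKM in the cortex and 3.55, 6.17 and 5.37 FPKM in the hippocampus (log2 difference -0.98). *Calb1*, the calcium buffer calbindin, overlapped between the tissues at 37.9, 57.8 and 46.7 FPKM in the hippocampus and 44.7, 40.9 and 39.8 FPKM in the cortex (log2 difference 0.16, SE 0.14, adjusted p = 0.39).

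Of 9 genes of CA1 pyramidal cells, 6 were called higher in the hippocampus and none higher in the cortex. Beside *Fibcd1* and *Spink8* these were *Lefty1* (2.29), a secreted TGF-beta family antagonist, *Zbtb20* (2.03), a repressor needed for CA1 identity, *Man1a* (1.55), a mannosidase, and *Pou3f1* (0.98), a POU transcription factor. *Wfs1*, a protein of the endoplasmic reticulum often used to outline CA1, did not separate the tissues at 32.1, 30.4 and 40.5 FPKM in the hippocampus and 22, 39.4 and 36.7 FPKM in the cortex (log2 difference 0.101, SE 0.21, adjusted p = 0.749). The same held for *Nov*, with 41.4, 31.0 and 52.6 FPKM in the hippocampus and 36.6, 52.7 and 44.4 FPKM in the cortex. In the list of CA2, 5 of 6 tested genes were higher in the hippocampus: *Amigo2* (2.10), *Ntf3* (1.81), *Rgs14* (1.41), *Cacng5* (0.92) and *Map3k15* (0.74). *Rgs14*, which restrains plasticity in CA2, was at 44.8, 43.6 and 45.8 FPKM in the hippocampus and 15.3, 18.1 and 15.4 FPKM in the cortex. *Pcp4*, another marker of CA2 and also a marker of deep cortical layers, was higher in the cortex (-0.77), and *Avpr1b* did not pass the filter, with at most 0.183 FPKM.

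For CA3, 5 of 6 genes were called higher in the hippocampus, *Iyd* (2.05), *Grik4* (1.61), *Bok* (1.06), *Cdh24* (1.05) and *Pvrl3* (0.66), and without Con 2 of the hippocampus there were 3. *Iyd*, like *Map3k15* of the CA2 list, passed the filter only through the 3 hippocampus libraries and was not tested when 1 of them was left out. *Grik4*, a kainate receptor subunit enriched in CA3, was at 31.1, 30.2 and 21.99 FPKM in the hippocampus and 8.17, 8.62 and 8.07 FPKM in the cortex (log2 difference 1.61, SE 0.12, adjusted p = 9.74e-06). *Coch*, a secreted protein, was 8.49 times higher in the cortex by the ratio of means, at 16.1, 12.95 and 12.8 FPKM in the cortex and 1.81, 1.51 and 1.60 FPKM in the hippocampus (log2 difference -2.49, SE 0.11, adjusted p = 3.83e-07). Its values lay close together within each tissue. Calls that 1 library decided were those of *Pvrl3* (without cortex Con 2 or hippocampus Con 2, log2 difference 0.56 to 0.57).

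**Figure D2:**
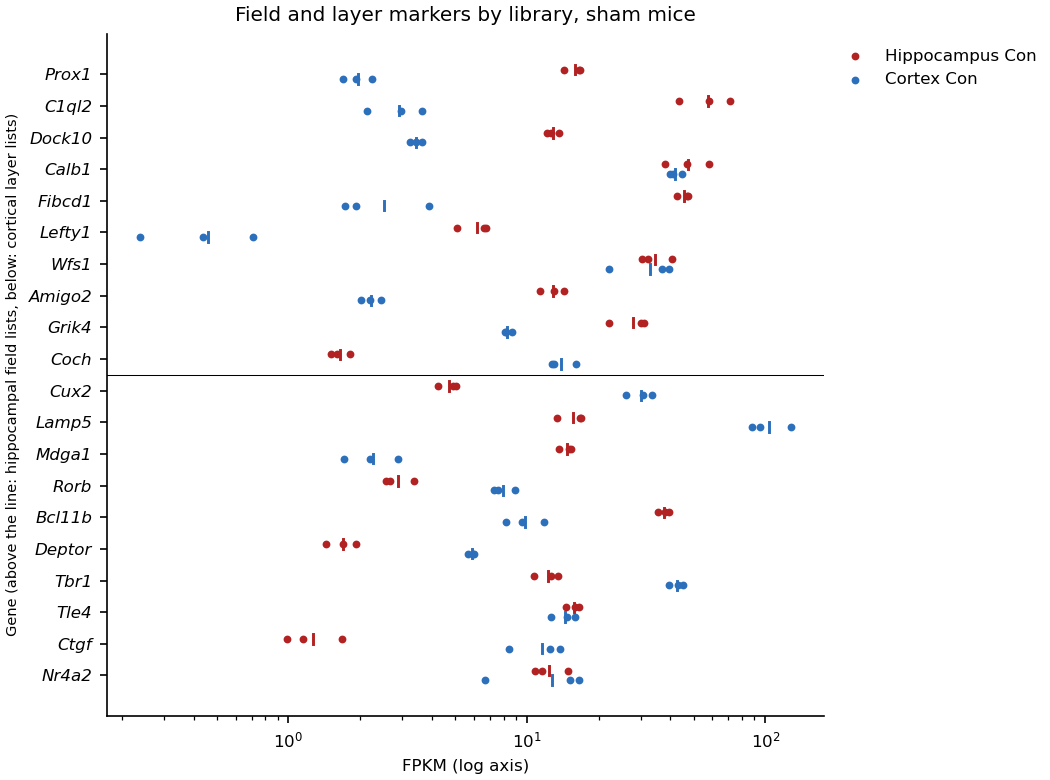
FPKM (log axis) of 20 marker genes in the 3 hippocampus Con libraries (red points) and the 3 cortex Con libraries (blue points), with the mean of each tissue as a tick. Genes above the line are from the hippocampal field lists and those below it from the cortical layer lists; *Calb1*, *Wfs1*, *Tle4* and *Nr4a2* overlap between the tissues, while *Coch*, *Mdga1* and *Bcl11b* lie on the opposite side from the rest of their lists.

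Genes of the cortical layers went mostly the other way, 20 of 32 (62.5%) higher in the cortex and 4 (12.5%) higher in the hippocampus (median log2 difference -1.11). The upper layers, 2 to 4, had the largest share, 8 of 10 genes. *Cux2*, a homeobox factor of upper layer neurons, was listed at 33.6, 26.0 and 30.6 FPKM in the cortex and 4.24, 4.89 and 5.04 FPKM in the hippocampus (log2 difference -2.44, SE 0.104, adjusted p = 3.83e-07). *Lamp5*, a membrane protein of upper layer and neurogliaform cells, was at 128, 87.6 and 94.7 FPKM in the cortex and 16.7, 16.8 and 13.4 FPKM in the hippocampus (log2 difference -2.64, SE 0.14, adjusted p = 2.25e-06). Both were several times higher in the cortex without overlap. Others were *Rspo1* (-2.54), *Cux1* (-1.46), *Otof* (-1.35), *Rorb* (-1.21) and *Rasgrf2* (-1.03). *Mdga1*, an adhesion protein at synapses that is named for upper layers, was higher in the hippocampus at 15.0, 15.4 and 13.7 FPKM in the hippocampus and 1.70, 2.88 and 2.21 FPKM in the cortex (log2 difference 2.28, SE 0.13, adjusted p = 1.84e-06), and *Scnn1a* overlapped (-0.08).

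Layer 5 genes were divided, 4 of 10 higher in the cortex and 3 higher in the hippocampus. *Tshz2* (-2.50), *Rbp4* (-1.64), *Deptor* (-1.36) and *Qrfpr* (-1.003) were the cortical ones. *Bcl11b*, known as Ctip2 and needed by subcerebral projection neurons as well as by hippocampal neurons, was at 38.0, 39.4 and 35.5 FPKM in the hippocampus and 8.14, 11.8 and 9.57 FPKM in the cortex (log2 difference 1.85, SE 0.12, adjusted p = 3.25e-06), and *Bcl6* (1.15) and *Fam84b* (1.14) were also higher in the hippocampus. *Fezf2*, the selector gene of subcerebral neurons, was not called at 15.0, 21.2 and 17.5 FPKM in the cortex and 11.7, 10.1 and 15.7 FPKM in the hippocampus (log2 difference -0.49, SE 0.16, adjusted p = 0.046). In layer 6, 5 of 7 were higher in the cortex. *Tbr1*, a T-box factor of corticothalamic neurons, was at 45.3, 39.5 and 43.0 FPKM in the cortex and 10.7, 12.6 and 13.5 FPKM in the hippocampus (log2 difference -1.72, SE 0.095, adjusted p = 1.69e-06). *Foxp2* (-1.43), *Ntsr1* (-1.32), *Rprm* (-1.19) and *Syt6* (-0.62) were the other 4, and the count was 3 without cortex Con 1, without cortex Con 3 and without hippocampus Con 3. *Foxp2* stayed under 0.5 FPKM in the hippocampus and did not pass the filter when any 1 of the cortex libraries was left out, so that it was not among those tested there. In layer 6b 3 of 5 were higher in the cortex, *Ctgf* (-2.45), *Cplx3* (-2.11) and *Nxph4* (-1.005), whereas *Nr4a2*, known for neurons of layer 6b and the claustrum, was not called at 6.65, 16.5 and 15.2 FPKM in the cortex and 11.5, 10.8 and 14.9 FPKM in the hippocampus (log2 difference 0.04, SE 0.33, adjusted p = 0.943). A single library could end the call of *Rprm* (without hippocampus Con 3, adjusted p 0.0792) and *Syt6* (without cortex Con 1 or 3 or hippocampus Con 3, log2 difference -0.53 to -0.58). *Rprm* was not called with the replicate block either. Omission of 1 library added a call for *Fezf2* (without cortex Con 1 or hippocampus Con 3, log2 difference -0.60 to -0.66).

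Transcription factors of the developing and adult forebrain separated the tissues in both directions. Of 37 listed factors, 15 were called higher in the hippocampus and 12 higher in the cortex, 73.0% together beside 13.7% of all genes tested. The list shares members such as *Zbtb20*, *Tbr1* and *Rorb* with the field and layer lists. It was also chosen with earlier results of these data known, so its high share is no independent result. The LIM homeobox factor *Lhx9* was close to absent in the cortex, with 6.47, 7.004 and 6.34 FPKM in the hippocampus and 0, 0.0703 and 0.0507 FPKM in the cortex (log2 difference 2.87, SE 0.096, adjusted p = 1.6e-07). *Lhx9* passed the filter only through the hippocampus, so it could only be called higher there. *Neurod6*, a bHLH factor of pyramidal neurons, was at 120.1, 121 and 109 FPKM in the hippocampus and 31.0, 36.6 and 35.5 FPKM in the cortex (log2 difference 1.74, SE 0.09, adjusted p = 9.72e-07), and its relatives *Neurod1* (0.87), *Neurod2* (0.86) and *Bhlhe22* (1.34) were also higher in the hippocampus. The list further held *Zbtb20* (2.03), *Lmo3* (1.43), *Nr2f2* (1.26), *Nfib* (1.10), *Zbtb18* (0.86), *Emx2* (0.84) and *Nfia* (0.79) on the hippocampal side. On the cortical side stood *Mef2c*, a MADS-box factor that limits synapse number, at 132, 111 and 128 FPKM in the cortex and 19.7, 24.97 and 21.04 FPKM in the hippocampus (log2 difference -2.45, SE 0.104, adjusted p = 3.83e-07). *Tshz3* (-1.996), *Tbr1* (-1.72), *Pou3f2* (-1.48), *Satb1* (-1.30) and *Rorb* (-1.21) were higher in the cortex as well. Close relatives diverged in the pairs *Emx1* (-1.04) and *Emx2* (0.84) and *Nr2f1* (-0.60) and *Nr2f2* (1.26). In each of these pairs the first was higher in the cortex and the second higher in the hippocampus. Leaving out 1 library ended the call of *Nr2f1* (without cortex Con 2 or hippocampus Con 3, log2 difference -0.54 to -0.56). After correction for length and GC content no call remained for *Nr2f1* (-0.56, adjusted p 0.000461), given as the log2 difference.

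The general genes of GABA neurons were not called, whereas several markers of interneuron subtypes were. *Gad1*, which makes GABA, was listed at 94.1, 88.2 and 97.3 FPKM in the hippocampus and 119, 98.1 and 113 FPKM in the cortex (log2 difference -0.23, SE 0.09, adjusted p = 0.0728). *Gad2* (0.15), *Slc32a1* (-0.27) and *Lhx6* (-0.08) were not called either. Of 18 interneuron genes tested, 4 (22.2%) were higher in the cortex and 5 (27.8%) higher in the hippocampus, beside 6.97% and 6.78% of all genes tested. *Vip*, the peptide of a class that inhibits other interneurons, was at 30.7, 34.2 and 27.1 FPKM in the cortex and 6.58, 5.40 and 7.52 FPKM in the hippocampus (log2 difference -2.08, SE 0.12, adjusted p = 2.22e-06). *Pvalb*, the calcium buffer of fast-spiking cells, was at 90.0, 73.3 and 70.1 FPKM in the cortex and 29.1, 21.3 and 25.9 FPKM in the hippocampus (log2 difference -1.58, SE 0.13, adjusted p = 1.62e-05), and *Npy* was at 146, 115 and 107 FPKM in the cortex and 54.5, 53.1 and 58.6 FPKM in the hippocampus. Higher in the hippocampus were *Calb2* at 37.1, 20.3 and 23.6 FPKM in the hippocampus and 6.40, 9.93 and 7.41 FPKM in the cortex (log2 difference 1.62, SE 0.23, adjusted p = 0.00144), and *Nos1* (1.56), *Kit* (1.24), *Cnr1* (0.90) and *Sncg* (0.59). *Sst* and *Cck*, the peptides of 2 further classes, were not called, with log2 differences of -0.48 and -0.30. When single libraries were omitted, no call remained for *Sncg* (without cortex Con 1 or hippocampus Con 1, log2 difference 0.49 to 0.53). With 1 library fewer the test called *Sst* (without hippocampus Con 3, log2 difference -0.65).

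Of 19 neuropeptide genes tested 9 (47.4%) were called higher in the cortex and 1 (5.26%) higher in the hippocampus, beside 6.97% and 6.78% of all genes tested. The list as a whole was not tested. Beside *Vip*, *Npy* and *Pdyn* the cortical ones were *Cartpt* (-1.44), *Tac2* (-1.397), *Adcyap1* (-1.27), *Crh* (-1.26), *Cort* (-1.03) and *Tac1* (-0.68). *Crh*, the stress peptide corticotropin-releasing hormone, was at 3.70, 3.08 and 3.23 FPKM in the cortex and 1.27, 0.516 and 0.720 FPKM in the hippocampus and its receptor *Crhr1* at 14.7, 14.9 and 13.04 FPKM in the cortex and 3.63, 3.71 and 4.36 FPKM in the hippocampus (log2 difference -1.64, SE 0.09, adjusted p = 1.96e-06). Both stood on the cortical side. *Gal*, the precursor of galanin, was the hippocampal one at 1.41, 1.12 and 0.985 FPKM in the hippocampus and 0, 0.112 and 0 FPKM in the cortex, and it did not pass the filter once any hippocampus library was left out. Among 18 peptide receptors 3 (16.7%) were higher in the hippocampus, *Npy2r* (3.68), *Sstr4* (1.32) and *Oxtr* (0.63). There were 6 (33.3%) higher in the cortex, *Cckbr* (-3.04), *Crhr1* (-1.64), *Ntsr1* (-1.32), *Sstr2* (-1.18), *Oprd1* (-0.78) and *Vipr1* (-0.61). Peptide and receptor thus differed in opposite directions for neuropeptide Y, with *Npy* at -1.12 and *Npy2r* at 3.68. The somatostatin receptors diverged too: *Sstr4* was at 18.9, 19.4 and 22.7 FPKM in the hippocampus and 7.30, 7.48 and 7.73 FPKM in the cortex and *Sstr2* at 7.44, 7.26 and 7.31 FPKM in the cortex and 2.98, 1.96 and 3.24 FPKM in the hippocampus. The call was lost on omission of 1 library for *Vipr1* (without cortex Con 1 or hippocampus Con 2, log2 difference -0.51 to -0.57). Corrected for transcript length and GC content, no call was left for *Oxtr* (0.58, adjusted p 0.00154), given as the log2 difference.

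Of 17 ionotropic subunits tested, 2 (11.8%) were called higher in the hippocampus, 2 (11.8%) higher in the cortex and 13 not at all. Over all genes tested the shares were 6.78% and 6.97%. *Gria1*, the GluA1 subunit of AMPA receptors, was listed at 305, 300.4 and 269 FPKM in the hippocampus and 58.9, 74.5 and 63.9 FPKM in the cortex (log2 difference 2.14, SE 0.102, adjusted p = 7.15e-07). *Gria2*, which makes AMPA receptors impermeable to calcium, was not called at 170.1, 175 and 162 FPKM in the hippocampus and 118, 102 and 119 FPKM in the cortex (log2 difference 0.58, SE 0.09, adjusted p = 0.000728), and *Gria4* (-0.96) was higher in the cortex. Among kainate subunits *Grik4* (1.61) was higher in the hippocampus and *Grik3* (-1.09) higher in the cortex. With length and GC content of the transcripts corrected for, 4 subunits in place of 2 were called on the hippocampal side. The auxiliary subunits, which set the trafficking and gating of these receptors, gave 5 of 14 (35.7%) higher in the hippocampus and 2 (14.3%) higher in the cortex. *Cnih2*, a cornichon protein, was at 325, 343 and 317 FPKM in the hippocampus and 103, 122 and 101 FPKM in the cortex (log2 difference 1.59, SE 0.09, adjusted p = 2.25e-06) and *Cacng8*, known as TARP gamma-8, at 135, 128 and 130.1 FPKM in the hippocampus and 40.1, 49.0 and 40.0 FPKM in the cortex (log2 difference 1.59, SE 0.09, adjusted p = 2.22e-06). *Shisa6* (3.43), *Neto1* (1.25) and *Cacng5* (0.92) were the other hippocampal ones, and *Gsg1l* (-1.69) and *Cacng3* (-0.88) were higher in the cortex. With 1 library fewer the test called *Gria2* (without cortex Con 1 or 3 or hippocampus Con 3, log2 difference 0.61).

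Of 7 metabotropic glutamate receptors 2 (28.6%) were called higher in the hippocampus and 3 (42.9%) higher in the cortex, beside 6.78% and 6.97% of all genes tested. *Grm5* (0.60), a receptor of group I, was among those higher in the hippocampus, and *Grm3* (-0.62), *Grm4* (-1.38) and *Grm8* (-1.46), which lower cAMP, were higher in the cortex. *Grm5* was at 37.7, 37.3 and 41.4 FPKM in the hippocampus and 22.7, 26.4 and 26.9 FPKM in the cortex, a difference just past the fold of 1.5 that was not called under quantile normalization or median ratio scaling. *Grm8* was at 4.79, 4.43 and 5.38 FPKM in the cortex and 1.11, 0.801 and 1.53 FPKM in the hippocampus (log2 difference -1.46, SE 0.13, adjusted p = 3.39e-05). Among 14 tested subunits of GABA receptors, 3 (21.4%) were higher in the hippocampus and 4 (28.6%) higher in the cortex. *Gabra5*, the alpha5 subunit of receptors outside the synapse, was at 79.9, 88.0 and 91.2 FPKM in the hippocampus and 17.1, 19.8 and 18.6 FPKM in the cortex (log2 difference 2.17, SE 0.08, adjusted p = 3.16e-07). *Gabrd*, the delta subunit, which also serves outside the synapse, was at 44.6, 34.8 and 35.5 FPKM in the cortex and 9.84, 8.79 and 11.6 FPKM in the hippocampus (log2 difference -1.82, SE 0.12, adjusted p = 4.5e-06). The alpha subunits *Gabra5* (2.17) and *Gabra2* (1.29) were thus higher in the hippocampus and *Gabra3* (-1.48) higher in the cortex, as was the gamma subunit *Gabrg3* (-1.10). Calls that 1 library decided were those of *Grm5* (without cortex Con 1 or hippocampus Con 3, log2 difference 0.53 to 0.55) and *Grm3* (without cortex Con 3 or hippocampus Con 1, log2 difference -0.55 to -0.57). The length and GC correction ended the call of *Grm5* (0.58, adjusted p 0.00106), given as the log2 difference.

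**Figure D3:**
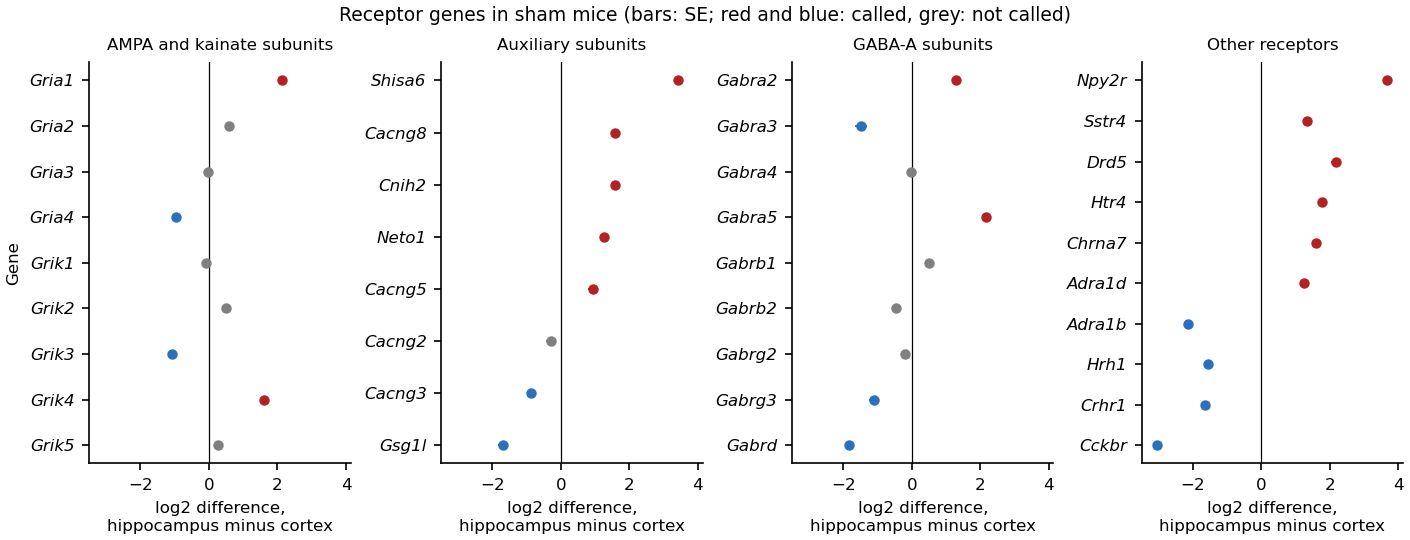
Log2 difference between hippocampus and cortex in sham mice (horizontal axis, log2(FPKM + 1) scale) for 36 receptor genes in 4 groups, with the SE from limma as bars. Genes called higher in the hippocampus are red, those called higher in the cortex blue and those not called grey, and each of the 4 groups holds both red and blue points.

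Receptors of the monoamines were called in both directions. For serotonin 4 of 11 tested genes (36.4%) were higher in the hippocampus and 1 (9.09%) higher in the cortex, beside 6.78% and 6.97% of all genes tested. *Htr4* was at 3.23, 3.57 and 3.49 FPKM in the hippocampus and 0.298, 0.236 and 0.334 FPKM in the cortex (log2 difference 1.78, SE 0.097, adjusted p = 1.56e-06) and *Htr1a*, the inhibitory receptor that also serves as autoreceptor, at 9.79, 8.24 and 8.17 FPKM in the hippocampus and 4.08, 5.26 and 5.15 FPKM in the cortex (log2 difference 0.74, SE 0.11, adjusted p = 0.000689). *Htr5b* (1.38) and *Htr2c* (0.59) were higher in the hippocampus too and *Htr5a* (-0.86) was higher in the cortex, and 2 hippocampal calls were left without hippocampus Con 2, when *Htr4*, which passed the filter only through the hippocampus, was not tested. For dopamine, noradrenaline and histamine 7 of 13 (53.8%) were higher in the cortex and 2 (15.4%) higher in the hippocampus. *Adra1b* was at 9.004, 6.49 and 7.54 FPKM in the cortex and 0.891, 1.04 and 0.976 FPKM in the hippocampus (log2 difference -2.13, SE 0.12, adjusted p = 1.67e-06), while *Adra1d*, a receptor of the same alpha1 family, was at 43.7, 50.9 and 39.7 FPKM in the hippocampus and 20.5, 17.5 and 16.9 FPKM in the cortex (log2 difference 1.24, SE 0.11, adjusted p = 2.14e-05). The dopamine receptors of the D1 type also diverged, *Drd5* at 5.37, 6.30 and 6.22 FPKM in the hippocampus and 0.335, 0.846 and 0.471 FPKM in the cortex (log2 difference 2.18, SE 0.13, adjusted p = 2.84e-06) and *Drd1* at 2.35, 2.50 and 2.49 FPKM in the cortex and 1.91, 0.771 and 0.886 FPKM in the hippocampus (log2 difference -0.69, SE 0.17, adjusted p = 0.0126). The 3 histamine receptors *Hrh1* (-1.55), *Hrh3* (-1.06) and *Hrh2* (-1.04) were all higher in the cortex, as was *Adrb1* (-0.98). A single library could end the call of *Htr2c* (without cortex Con 1 or hippocampus Con 2, log2 difference 0.44 to 0.50) and *Drd1* (without cortex Con 2 or hippocampus Con 2, adjusted p 0.0459 to 0.0511, log2 difference -0.56 to -0.68). After correction for length and GC content no call remained for *Htr2c* (0.52, adjusted p 0.019), given as the log2 difference.

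For acetylcholine 2 of 10 tested genes (20%) were higher in the hippocampus and 4 (40%) higher in the cortex, beside 6.78% and 6.97% of all genes tested. *Chrna7*, the alpha7 nicotinic subunit, was at 16.0, 15.1 and 16.4 FPKM in the hippocampus and 5.38, 3.46 and 4.95 FPKM in the cortex (log2 difference 1.60, SE 0.13, adjusted p = 1.37e-05), and *Chrna4*, the alpha4 subunit of the other common nicotinic receptor, at 10.9, 13.5 and 13.2 FPKM in the cortex and 3.69, 3.74 and 5.12 FPKM in the hippocampus (log2 difference -1.39, SE 0.13, adjusted p = 2.94e-05). The muscarinic receptors *Chrm4* (-1.10) and *Chrm2* (-0.69) were higher in the cortex and *Chrm5* (1.01) was higher in the hippocampus. Without cortex Con 1 there were 2 cortical calls, and *Chrm5*, under 0.5 FPKM in each cortex library, failed the filter when a hippocampus library was left out. Leaving out 1 library ended the call of *Chrm2* (without cortex Con 1 or hippocampus Con 1, log2 difference -0.55 to -0.57).

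Of 73 potassium channel genes tested, 25 (34.2%) were called higher in the cortex and 9 (12.3%) higher in the hippocampus. Both shares exceeded the 6.97% and 6.78% of all genes tested. Their median log2 difference was -0.23, and the list as a whole was not tested. The ether-a-go-go family gave *Kcnh4* (-2.01), *Kcnh7* (-1.49), *Kcnh5* (-1.42), *Kcnh3* (-1.02) and *Kcnh1* (-0.76). *Kcnt1*, a channel opened by sodium, was at 33.3, 26.9 and 25.8 FPKM in the cortex and 6.62, 5.31 and 9.02 FPKM in the hippocampus (log2 difference -1.91, SE 0.17, adjusted p = 4.17e-05). *Kcnk3*, a leak channel of the TASK type, was at 11.7, 11.0 and 10.6 FPKM in the cortex and 3.30, 3.39 and 3.74 FPKM in the hippocampus (log2 difference -1.44, SE 0.08, adjusted p = 2.22e-06), and the beta subunit *Kcnab3* (-1.83) stood on the same side. In the hippocampus the silent subunits *Kcng2* (2.12) and *Kcng1* (1.02) were higher, with *Kcng2* at 9.42, 13.7 and 13.4 FPKM in the hippocampus and 1.91, 1.80 and 2.33 FPKM in the cortex (log2 difference 2.12, SE 0.14, adjusted p = 4.58e-06). The inward rectifiers coupled to G proteins were divided: *Kcnj6* was higher in the hippocampus (1.11) and *Kcnj9* higher in the cortex (-1.14). *Kcnip2* (0.87), *Kcnab1* (0.85), *Kcna4* (0.83), *Kcnd2* (0.70) and *Kcnab2* (0.68) were also among the 9, with *Kcnd2* and *Kcnip2* as a pore and an auxiliary subunit of the A-type current.

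Of 27 sodium, calcium and HCN channel genes tested, 4 (14.8%) were higher in the hippocampus and 4 (14.8%) higher in the cortex. Over all genes tested the shares were 6.78% and 6.97%. *Scn4b*, a beta subunit that supports resurgent sodium current, was at 28.8, 15.0 and 22.6 FPKM in the cortex and 5.28, 3.38 and 5.11 FPKM in the hippocampus (log2 difference -2.02, SE 0.24, adjusted p = 0.00051), and *Scn1a* (-0.89), the sodium channel of fast-spiking interneurons, stood with it. The beta subunit *Scn3b* was at 61.0, 70.8 and 72.2 FPKM in the hippocampus and 18.3, 26.8 and 23.4 FPKM in the cortex (log2 difference 1.55, SE 0.13, adjusted p = 2.06e-05). T-type calcium channels diverged, *Cacna1h* at 20.7, 26.1 and 28.4 FPKM in the hippocampus and 7.51, 8.54 and 8.40 FPKM in the cortex and *Cacna1g* at 18.3, 14.4 and 17.5 FPKM in the cortex and 9.79, 8.47 and 10.6 FPKM in the hippocampus. The L-type subunit *Cacna1c* (1.09) and *Cacnb2* (0.90) were higher in the hippocampus and *Cacnb4* (-1.28) was higher in the cortex.

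Proteins that organize synapses were called higher in the hippocampus in 7 of 26 cases (26.9%) and higher in the cortex in 3 (11.5%). Over all genes tested the shares were 6.78% and 6.97%. *Nptx1*, a pentraxin that gathers AMPA receptors, was at 163, 181 and 149 FPKM in the hippocampus and 82.6, 73.6 and 74.9 FPKM in the cortex (log2 difference 1.08, SE 0.09, adjusted p = 2.14e-05). *C1ql2* (3.89), *Lrrtm1* (1.16), *Slitrk3* (0.83), *Nlgn3* (0.75), *Slitrk5* (0.70) and *C1ql1* (0.66) were the other 6. The cerebellins, which bridge neurexins and glutamate receptors of the delta type, were on the cortical side: *Cbln2* was at 15.3, 10.9 and 14.4 FPKM in the cortex and 2.05, 0.939 and 2.74 FPKM in the hippocampus (log2 difference -2.36, SE 0.23, adjusted p = 0.000157) and *Cbln1* (-1.69) was called with it. The leucine-rich repeat proteins diverged, with *Lrrtm1* at 39.1, 42.7 and 45.2 FPKM in the hippocampus and 15.3, 19.6 and 20.6 FPKM in the cortex and *Lrrtm3* at 12.5, 12.7 and 11.8 FPKM in the cortex and 3.01, 3.29 and 3.88 FPKM in the hippocampus. Of 19 genes of vesicle release and transmitter transport 5 (26.3%) were higher in the cortex and 1 (5.26%) higher in the hippocampus, *Syt17* (0.78). The cortical ones were *Cplx3* (-2.11), *Slc17a6* (-2.003), *Syt2* (-1.51), *Slc30a3* (-0.65) and *Syt6* (-0.62). Quantile normalization and leaving out hippocampus Con 3 each gave 3 hippocampal calls. *Slc17a6*, the vesicular glutamate transporter of thalamic and subcortical neurons, was at 8.21, 7.77 and 9.34 FPKM in the cortex and 1.55, 0.674 and 2.03 FPKM in the hippocampus (log2 difference -2.003, SE 0.20, adjusted p = 7.53e-05). When single libraries were omitted, no call remained for *C1ql1* (without cortex Con 1, log2 difference 0.52). Corrected for transcript length and GC content, no call was left for *Slc30a3* (-0.54, adjusted p 0.00129), given as the log2 difference.

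Of 25 genes of calcium binding and calcium signaling 9 (36%) were higher in the hippocampus and 8 (32%) higher in the cortex. Over all genes tested the shares were 6.78% and 6.97%. *Hpca*, hippocalcin, the neuronal calcium sensor named after the hippocampus, was at 1416, 1498 and 1114 FPKM in the hippocampus and 372, 343 and 329 FPKM in the cortex (log2 difference 1.94, SE 0.12, adjusted p = 3.1e-06). *Crym*, a thyroid hormone binding protein kept in this list as a regional marker, was at 187, 172 and 161 FPKM in the hippocampus and 26.1, 58.0 and 35.5 FPKM in the cortex (log2 difference 2.17, SE 0.26, adjusted p = 0.000776). The related calcium sensor *Vsnl1* was higher in the cortex at 436, 404 and 435 FPKM in the cortex and 234, 229 and 227 FPKM in the hippocampus (log2 difference -0.88, SE 0.08, adjusted p = 2.6e-05). The subunits of CaM kinase II diverged, with *Camk2b* (0.97) higher in the hippocampus and *Camk2d* (-1.54) and *Camk2g* (-0.98) higher in the cortex. Among protein kinase C genes *Prkcd* (1.66) and *Prkca* (1.30) were higher in the hippocampus. *Necab3* was at 43.9, 38.9 and 34.7 FPKM in the cortex and 7.14, 6.00 and 7.68 FPKM in the hippocampus (log2 difference -2.34, SE 0.11, adjusted p = 6.09e-07) and *Necab2* at 48.6, 49.3 and 46.2 FPKM in the hippocampus and 12.1, 27.8 and 21.9 FPKM in the cortex (log2 difference 1.26, SE 0.27, adjusted p = 0.0116), so that members of this family too stood on opposite sides. The call was lost on omission of 1 library for *Necab2* (without hippocampus Con 1 or 3, adjusted p 0.0545 to 0.0649).

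Adhesion and guidance genes were called in both directions. Among 14 classical cadherins 4 (28.6%) were called higher in the hippocampus and 5 (35.7%) higher in the cortex, beside 6.78% and 6.97% of all genes tested. *Cdh9*, which is needed at mossy fibre synapses, was at 17.1, 16.5 and 11.5 FPKM in the hippocampus and 4.15, 3.61 and 3.64 FPKM in the cortex (log2 difference 1.72, SE 0.14, adjusted p = 1.47e-05). *Cdh7* was at 3.39, 3.50 and 3.94 FPKM in the cortex and 0.343, 0.336 and 0.609 FPKM in the hippocampus (log2 difference -1.69, SE 0.11, adjusted p = 4.58e-06). *Cdh24* (1.05), *Cdh8* (0.72) and *Cdh11* (0.70) were higher in the hippocampus and *Cdh18* (-1.42), *Cdh22* (-1.39), *Cdh6* (-1.34) and *Cdh20* (-0.83) higher in the cortex. Of 19 ephrins and Eph receptors 6 (31.6%) were higher in the hippocampus and 4 (21.1%) higher in the cortex. The receptor *Epha7* was at 52.1, 62.7 and 49.98 FPKM in the hippocampus and 11.7, 11.6 and 12.8 FPKM in the cortex (log2 difference 2.10, SE 0.096, adjusted p = 5.34e-07), and the ligand *Efna5*, which repels axons that carry EphA receptors, at 10.5, 9.28 and 8.96 FPKM in the cortex and 1.34, 1.60 and 1.45 FPKM in the hippocampus (log2 difference -2.10, SE 0.096, adjusted p = 5.34e-07). *Epha6* (1.70), *Epha4* (1.30) and *Epha3* (1.05) were higher in the hippocampus with *Efnb3* (1.18) and *Efna3* (0.63), and *Epha8* (-1.31), *Ephb6* (-0.76) and *Efnb2* (-0.63) higher in the cortex. Calls that 1 library decided were those of *Efna3* (without cortex Con 2, log2 difference 0.55) and *Efnb2* (without hippocampus Con 2, log2 difference -0.58).

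In the semaphorin system 6 of 31 genes (19.4%) were higher in the hippocampus and 4 (12.9%) higher in the cortex, beside 6.78% and 6.97% of all genes tested. Both neuropilins, the receptors that bind secreted semaphorins, were higher in the hippocampus: *Nrp2* was at 19.8, 19.97 and 16.9 FPKM in the hippocampus and 3.11, 3.68 and 4.38 FPKM in the cortex (log2 difference 2.08, SE 0.11, adjusted p = 1.56e-06) and *Nrp1* at 30.4, 34.6 and 28.4 FPKM in the hippocampus and 6.01, 9.23 and 8.23 FPKM in the cortex (log2 difference 1.88, SE 0.14, adjusted p = 8.76e-06). Their plexin partners *Plxna4* (1.21) and *Plxna1* (0.96) were on the same side. The ligands of the neuropilins, *Sema3a* (-1.93) and *Sema3f* (-1.69), were higher in the cortex, with *Sema3a* at 4.998, 4.48 and 3.82 FPKM in the cortex and 0.444, 0.311 and 0.496 FPKM in the hippocampus (log2 difference -1.93, SE 0.11, adjusted p = 2.36e-06). *Sema3e*, which acts through plexin D1 rather than through a neuropilin, was at 16.4, 16.7 and 13.7 FPKM in the hippocampus and 4.70, 5.01 and 4.78 FPKM in the cortex and its receptor *Plxnd1* at 25.5, 22.9 and 25.4 FPKM in the cortex and 6.35, 5.35 and 7.62 FPKM in the hippocampus. Ligand and receptor thus stood on opposite sides in both cases. *Sema3a*, however, stayed under 0.5 FPKM in the hippocampus and passed the filter only through the cortex, so it could only be called higher there. *Sema5a* (1.92) was higher in the hippocampus and *Sema4a* (-0.88) higher in the cortex.

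Corticosteroids act on the hippocampus through a high-affinity and a low-affinity receptor. *Nr3c2*, the mineralocorticoid receptor of high affinity, was listed at 47.4, 52.0 and 53.5 FPKM in the hippocampus and 7.08, 6.42 and 7.51 FPKM in the cortex (log2 difference 2.70, SE 0.08, adjusted p = 1.4e-07). *Nr3c1*, the glucocorticoid receptor, was at 16.0, 15.5 and 17.1 FPKM in the hippocampus and 22.5, 19.0 and 22.4 FPKM in the cortex (log2 difference -0.37, SE 0.09, adjusted p = 0.00837). The first was 7.28 times higher in the hippocampus by the ratio of means, and the second was not called. Of 8 genes of this list 4 (50%) were called, all higher in the hippocampus, beside 6.78% of all genes tested. *Fkbp5*, a chaperone induced by these receptors, was at 19.5, 21.04 and 17.8 FPKM in the hippocampus and 5.803, 7.88 and 6.91 FPKM in the cortex (log2 difference 1.38, SE 0.11, adjusted p = 1.21e-05), *Hsd11b1*, which regenerates active corticosterone, at 20.5, 20.6 and 20.6 FPKM in the hippocampus and 12.2, 10.3 and 12.7 FPKM in the cortex (log2 difference 0.76, SE 0.09, adjusted p = 0.00013), and *Zbtb16* (0.75) completed the list. Without cortex Con 1, 1 gene of the list was called higher in the cortex.

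Genes that neuronal activity induces within minutes to hours were lower in the hippocampus in part. Of 21 genes 5 (23.8%) were called higher in the cortex and 3 (14.3%) higher in the hippocampus, beside 6.97% and 6.78% of all genes tested. *Fos* was listed at 4.58, 14.8 and 14.4 FPKM in the cortex and 1.34, 2.87 and 3.19 FPKM in the hippocampus (log2 difference -1.72, SE 0.48, adjusted p = 0.0405). *Egr1* was at 49.9, 93.2 and 96.9 FPKM in the cortex and 25.3, 37.2 and 35.3 FPKM in the hippocampus (log2 difference -1.23, SE 0.28, adjusted p = 0.0142). In both genes cortex Con 1 had the lowest of the cortex values, and without that library 10 genes of the list were higher in the cortex, whereas 3 were without hippocampus Con 1 or Con 3 and 9 when the library number entered the fit as a replicate block. *Dusp1* (-1.59), *Npas4* (-1.34) and *Ier2* (-1.27) were the other cortical ones. *Nr4a3*, an orphan nuclear receptor, stood apart with 23.2, 26.4 and 24.6 FPKM in the hippocampus and 3.07, 4.91 and 6.02 FPKM in the cortex (log2 difference 2.22, SE 0.18, adjusted p = 2.76e-05), and *Jun* (1.399) and *Bdnf* (1.14) were higher in the hippocampus with it. Among 7 neurotrophin genes 3 were higher in the hippocampus, *Ntf3* (1.81) and *Bdnf* (1.14) among them, and none was higher in the cortex. *Bdnf* was at 11.7, 13.6 and 12.3 FPKM in the hippocampus and 4.88, 5.195 and 5.30 FPKM in the cortex (log2 difference 1.14, SE 0.08, adjusted p = 8.33e-06). A single library could end the call of *Fos* (without cortex Con 2 or 3 or hippocampus Con 1, 2 or 3, adjusted p 0.069 to 0.141) and *Egr1* (without hippocampus Con 1 or 3, adjusted p 0.0567 to 0.0598).

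Of 16 genes of the circadian clock 5 (31.2%) were higher in the cortex and none in the hippocampus, beside 6.97% and 6.78% of all genes tested. Those called were *Npas2* (-1.03), *Hlf* (-0.96), *Ciart* (-0.94), *Dbp* (-0.79) and *Nr1d1* (-0.76). *Dbp* and *Hlf* are output factors of the clock, *Nr1d1* and *Ciart* repressors, and *Npas2* a partner of *Arntl* in its activating arm. *Dbp* was at 51.3, 45.4 and 48.4 FPKM in the cortex and 26.7, 24.7 and 31.3 FPKM in the hippocampus (log2 difference -0.79, SE 0.096, adjusted p = 0.000198), and *Arntl* (-0.08), *Clock* (-0.26) and *Per2* (0.17) were not called. The time of day at which the tissues were taken is not given in the labels. Of 31 genes of Wnt signaling 6 (19.4%) were higher in the cortex and 1 (3.23%) higher in the hippocampus, *Fzd7* (0.59). The cortical ones were *Dkkl1* (-3.79), *Wnt10a* (-1.53), *Wnt9a* (-0.97), *Sfrp1* (-0.81), *Wnt4* (-0.65) and *Fzd3* (-0.62). The hippocampal count was 0 under median ratio scaling, 4 with a pseudocount of 0.1, 2 without cortex Con 1 and 3 without cortex Con 3. Leaving out 1 library ended the call of *Fzd3* (without cortex Con 3 or hippocampus Con 1, log2 difference -0.54 to -0.56) and *Fzd7* (without cortex Con 2 or hippocampus Con 2, log2 difference 0.53 to 0.54). The length and GC correction ended the call of *Fzd3* (-0.49, adjusted p 0.00126) and *Fzd7* (0.57, adjusted p 0.00242), given as the log2 difference.

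Few genes of glia and vessels were called. Of 70 genes of astrocytes, oligodendrocytes, their precursors, microglia, endothelium and pericytes 4 were called higher in the hippocampus and none higher in the cortex, 5.71% beside 13.7% of all genes tested. No gene was called among 14 of myelin, 7 of precursors, 14 of microglia and 8 of pericytes, although 1 gene of the myelin list, *Myrf*, was called higher in the hippocampus without cortex Con 2, with a pseudocount of 0.1 and with the ratio of means as the fold. *Mbp*, myelin basic protein, was at 741, 607 and 712 FPKM in the hippocampus and 749.8, 767 and 627 FPKM in the cortex (log2 difference -0.06, SE 0.11, adjusted p = 0.729) and *Csf1r*, the growth factor receptor of microglia, at 22.3, 20.5 and 24.1 FPKM in the hippocampus and 21.1, 20.4 and 19.8 FPKM in the cortex (log2 difference 0.12, SE 0.08, adjusted p = 0.279). A value without a call does not show equality, but the standard errors were 0.11 and 0.08 on the log2 scale. The 4 called genes were the astrocyte genes *Gfap*, *Aqp4* and *Gja1* and the tight junction gene *Ocln* of the endothelial list (0.89). *Gfap*, the intermediate filament of astrocytes, was at 212, 124 and 146 FPKM in the hippocampus and 40.2, 50.5 and 72.6 FPKM in the cortex (log2 difference 1.55, SE 0.26, adjusted p = 0.00366). *Aqp4*, the water channel of their endfeet, was at 28.9, 27.7 and 39.7 FPKM in the hippocampus and 17.8, 15.2 and 27.3 FPKM in the cortex (log2 difference 0.67, SE 0.22, adjusted p = 0.0477), and *Gja1*, connexin 43, at 83.6, 80.6 and 75.1 FPKM in the hippocampus and 48.3, 47.0 and 59.6 FPKM in the cortex (log2 difference 0.63, SE 0.101, adjusted p = 0.00111). *Slc1a2* (0.04) and *Aldh1l1* (-0.55, adjusted p = 0.000361), which mark astrocytes at large, were not called, the second because its fold was under 1.5. At any fold, 10 of the 14 astrocyte genes had an adjusted p under 0.05, beside 36.3% of all genes tested. The log2 difference was positive in 7 of the 14 and negative in 7. The astrocyte calls higher in the hippocampus fell from 3 to 1 without cortex Con 2 and under quantile normalization, which also called *Aldh1l1* higher in the cortex. When single libraries were omitted, no call remained for *Aqp4* (without cortex Con 1 or 2 or hippocampus Con 1, 2 or 3, adjusted p 0.0646 to 0.138) and *Gja1* (without cortex Con 1 or 2, log2 difference 0.56 to 0.58). With 1 library fewer the test called *Aldh1l1* (without hippocampus Con 1, log2 difference -0.59). After correction for length and GC content no call remained for *Gja1* (0.56, adjusted p 0.00147), given as the log2 difference.

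Lists of cells that border the tissues were checked because a dissection can include them. Of 5 ependymal genes, which build the cilia of the ventricle wall, 4 were called higher in the hippocampus, with a summed level of 16.9 to 28.0 FPKM there and 4.33 to 12.7 FPKM in the cortex. *Foxj1*, the master factor of motile cilia, was at 2.70, 3.68 and 6.63 FPKM in the hippocampus and 1.07, 1.17 and 2.37 FPKM in the cortex (log2 difference 1.04, SE 0.29, adjusted p = 0.0257), and 1 gene of the list was called without cortex Con 1. *Ttr*, transthyretin, the most abundant mRNA of the choroid plexus, was at 16.7, 1005 and 55.6 FPKM in the hippocampus and 2.75, 9.64 and 27.4 FPKM in the cortex (log2 difference 3.27, SE 1.89, adjusted p = 0.261) and overlapped. 1 of the 7 choroid plexus genes tested was called, *Kl*, at 4.50, 21.95 and 6.83 FPKM in the hippocampus and 0.484, 0.630 and 1.18 FPKM in the cortex (log2 difference 2.52, SE 0.56, adjusted p = 0.0196). Without hippocampus Con 2 its log2 difference was 1.92 with an adjusted p of 0.000257, and with the replicate block it was no longer called (adjusted p = 0.0616). *Kcnj13*, a potassium channel of that epithelium, was at 0.103, 8.99 and 0.702 FPKM in the hippocampus and 1.07, 1.11 and 1.02 FPKM in the cortex (log2 difference 0.36, SE 0.91, adjusted p = 0.793), and without hippocampus Con 2 it was the 1 gene of the list called higher in the cortex. The number called higher in the hippocampus was 2 without hippocampus Con 1 and with the length and GC correction and 3 with limma without trend or robust prior, and it was 0 without cortex Con 1 or hippocampus Con 3. The call was lost on omission of 1 library for *Foxj1* (without cortex Con 1 or 2 or hippocampus Con 2, adjusted p 0.0609 to 0.0922) and *Kl* (without cortex Con 1 or hippocampus Con 3, adjusted p 0.0558 to 0.0848). With 1 library fewer the test called *Kcnj13* (without hippocampus Con 2, log2 difference -0.59).

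The striatal list had 3 of 10 tested genes higher in the cortex, *Drd1* (-0.69) and *Ppp1r1b* (-0.61) among them, and 1 higher in the hippocampus, *Syndig1l* (0.76), whose tissues overlapped. Its summed level was 81.0 to 87.3 FPKM in the cortex and 52.2 to 62.5 FPKM in the hippocampus. The defining receptors *Drd2* and *Adora2a* stayed under 1 FPKM in all 6 libraries, with 0.0828, 0.741 and 0.329 and 0.947, 0.738 and 0.460 FPKM in the cortex. The thalamic list was divided, 3 higher in the cortex and 2 higher in the hippocampus of 8, and its defining factor *Gbx2* had at most 0.0555 FPKM; without hippocampus Con 3 there was 1 hippocampal call. Of 7 genes of meningeal fibroblasts 1 was called, *Slc6a13* (-0.97), higher in the cortex, while without hippocampus Con 3 there were 2, and without hippocampus Con 2 another gene was called higher in the hippocampus. The hemoglobin gene *Hba-a1* was at 41.5, 32.5 and 37.1 FPKM in the cortex and 9.83, 13.3 and 27.0 FPKM in the hippocampus (log2 difference -1.22, SE 0.35, adjusted p = 0.039) and was not called with the replicate block (adjusted p = 0.0743). The part of such cells in the differences above was not tested. Calls that 1 library decided were those of *Ppp1r1b* (without cortex Con 1 or hippocampus Con 3, log2 difference -0.48 to -0.57), *Syndig1l* (without cortex Con 1 or 3 or hippocampus Con 1 or 2, adjusted p 0.0636 to 0.0813) and *Hba-a1* (without cortex Con 1, 2 or 3 or hippocampus Con 1 or 2, adjusted p 0.0567 to 0.115). With 1 library fewer the test called *Drd2* (without cortex Con 2, log2 difference 0.59). Corrected for transcript length and GC content, no call was left for *Ppp1r1b* (-0.50, adjusted p 0.0114) and *Hba-a1* (-1.02, adjusted p 0.0856), given as the log2 difference.

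New neurons arise in the adult dentate gyrus, and the genes used to find them did not move as a group. Of 7 tested 3 were higher in the hippocampus, *Bhlhe22* (1.34), *Cd24a* (1.10) and *Neurod1* (0.87), and 2 higher in the cortex. *Dcx*, doublecortin, was at 6.14, 5.25 and 6.18 FPKM in the cortex and 2.50, 1.65 and 2.19 FPKM in the hippocampus (log2 difference -1.15, SE 0.12, adjusted p = 8.13e-05). *Stmn1*, a microtubule-destabilizing protein, was at 711, 773 and 651 FPKM in the cortex and 207, 141 and 166 FPKM in the hippocampus (log2 difference -2.06, SE 0.14, adjusted p = 4.59e-06). Both of these microtubule genes were lower in the hippocampus in every library. *Eomes*, *Igfbpl1* and *Draxin* did not pass the filter, and *Eomes*, a factor of intermediate progenitors, was at 0.213, 0.190 and 0.0607 FPKM in the hippocampus and 0.0160, 0.0160 and 0.0319 FPKM in the cortex. Of the 8 genes of dividing cells 4 were too low to test, among them *Mki67* at 0.221, 0.167 and 0.199 FPKM in the hippocampus and 0.0447, 0.106 and 0.140 FPKM in the cortex, and none of the other 4 was called.

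None of 13 genes commonly used as references in qPCR was called, with a median log2 difference of -0.095 and a range from -0.51 to 0.55. Without cortex Con 2, 1 of them, *Actb*, was called higher in the hippocampus. Of 78 genes of cytosolic ribosomal proteins 5 were called, all higher in the cortex, which is 6.41% of them beside 6.97% of all genes tested (median -0.16), among them *Rps29* at 870.2, 1027 and 873 FPKM in the cortex and 461, 419.9 and 668 FPKM in the hippocampus (log2 difference -0.86, SE 0.16, adjusted p = 0.00329), and the count was 2 without hippocampus Con 2, 3 without cortex Con 2 and 10 without hippocampus Con 1 or cortex Con 3, and 2 genes of the list were called higher in the hippocampus without cortex Con 2 or hippocampus Con 3. Of 79 nuclear genes of the respiratory chain 6 (7.59% beside the same 6.97%) were higher in the cortex, with *Cox6a2* (-2.08), an isoform of muscle and of some interneurons, as the largest. The count was 3 without cortex Con 2 or hippocampus Con 2 and with the length and GC correction. Differences also moved with transcript properties. The median log2 difference rose from -0.06 in the quintile of genes with the shortest transcripts to 0.07 in the quintile with the longest, and fell from 0.06 to -0.06 from the lowest to the highest quintile of GC content. The part of library preparation in this was not tested.

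**Figure D4:**
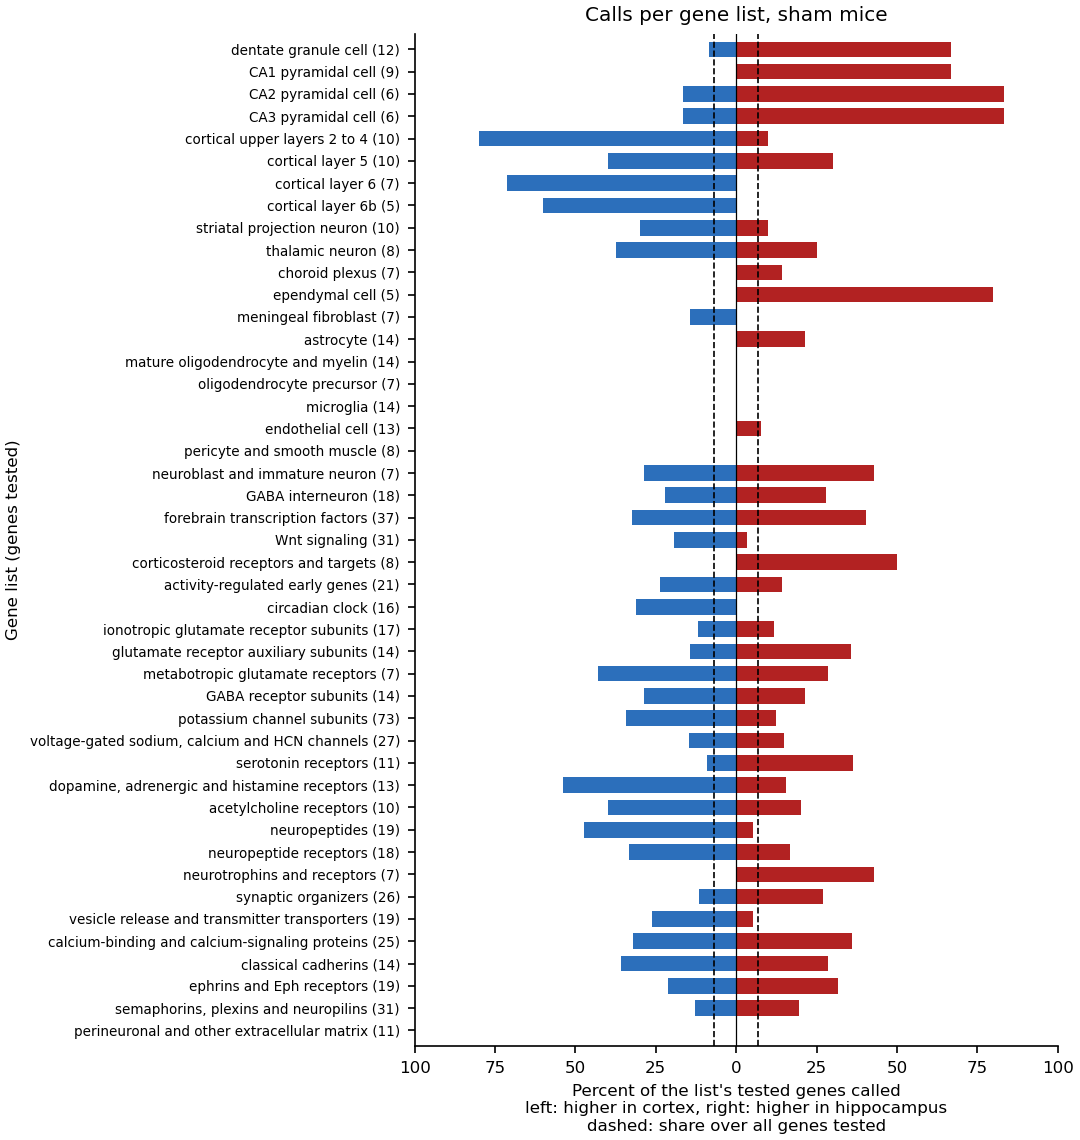
Percent of each list's tested genes called higher in the cortex (blue, to the left) and higher in the hippocampus (red, to the right) in sham mice, for 45 lists with at least 5 genes tested, with the share over all genes tested as dashed lines (6.97% and 6.78%). The technical lists (qPCR references, ribosomal proteins, respiratory chain, small nucleolar RNAs and histones) are not drawn. Field lists reach far to the right and upper layer genes far to the left, most receptor, channel and guidance lists extend past both lines, and the lists of myelin, precursor cells, microglia, pericytes and extracellular matrix have no bar.

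Some genes were listed in one tissue alone. At least 1 FPKM in the 3 cortex libraries and 0 in the 3 hippocampus libraries were found in 9 genes, 3 of them small nucleolar RNAs, and the reverse was found in none. Chosen after their values were seen, these included *Kiss1*, the peptide kisspeptin, at 1.57, 1.14 and 1.55 FPKM in the cortex, *Ocm*, the parvalbumin relative oncomodulin, at 1.17, 1.36 and 1.26 FPKM, and *Ascl5*, a bHLH factor, at 1.57, 1.83 and 1.396 FPKM. All are low values, and at an unknown depth a 0 does not show that the RNA is absent. The share called was 14.5% of 571 long noncoding RNA genes, beside 13.7% of 13443 protein-coding genes, and of the noncoding ones 29 were higher in the hippocampus and 54 higher in the cortex.

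The comparison was repeated in the 6 libraries of irradiated mice, which share no library with the sham comparison but carry the same difference in column names. There 1967 of 14173 genes tested (13.9%) were called. Of the 1948 sham calls 1925 were tested in irradiated mice, 1924 had the same sign there and 1514 were called the same way, 77.7% of the sham calls and 77.0% of the irradiated calls. No gene was called in opposite directions. Over the 13990 genes tested in both, Pearson's r of the log2 differences was 0.917, where genes are not independent replicates. All 12 hippocampal genes of highest rank and 10 of the 12 cortical ones were called the same way, the exceptions being the 2 small nucleolar RNAs. Among the field markers 24 of 27 sham calls and among the layer markers 23 of 24 were called again. *C1ql2* had a log2 difference of 3.92 and *Cux2* of -2.35. Receptor and channel genes came back in 75 of 85 cases and adhesion and guidance genes in 27 of 29. Regulators came back in 43 of 51 cases, genes of neuron classes in 14 of 14, synaptic genes in 29 of 33, genes of other cells in 15 of 18, glial and vessel genes in 3 of 4 and peptides with the other signals in 17 of 22. The counts were low for neuropeptides, 6 of 10, corticosteroid genes, 2 of 4, and the housekeeping and other technical lists, 6 of 18, with 0 of 5 ribosomal protein genes. In the corticosteroid list 2 genes were called higher in the cortex in irradiated mice against 0 in sham mice. Among early genes 15 of 21 were called higher in the cortex in irradiated mice against 5 in sham mice. That sham count was 9 with the replicate block, 10 without cortex Con 1 and 3 without hippocampus Con 1 or Con 3. The change in the list's count was not tested. The difference between the treatments was tested gene by gene over all 12 libraries, and 12 of 14577 genes (0.0823%) had an adjusted p under 0.05 for it. With the library number as a replicate block this limma test gave 0 genes, and 1497 with an unadjusted p under 0.05.

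**Figure D5:**
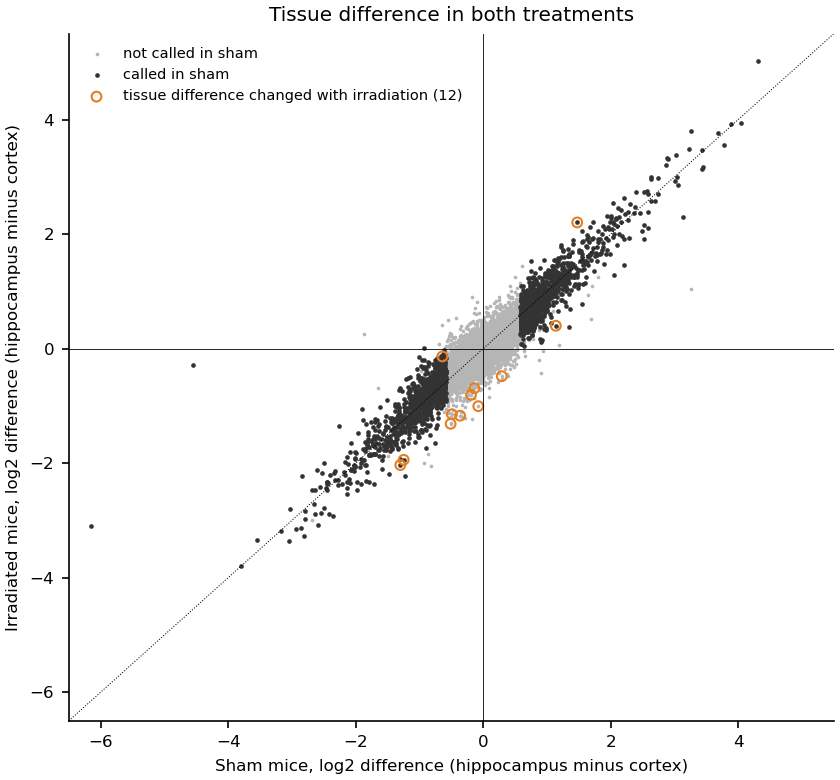
Log2 difference between hippocampus and cortex in sham mice (horizontal axis) and in irradiated mice (vertical axis) for the 13990 genes tested in both, on the log2(FPKM + 1) scale, with the line of equal differences dotted. Genes called in sham mice are dark and mostly lie along that line, with the small nucleolar RNAs at the far left above it, and the 12 genes with an adjusted p under 0.05 for the change of the tissue difference with irradiation are circled; with the replicate block there were 0 such genes.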

How the data were processed

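Gene expression in cortex and hippocampus libraries from sham and irradiated mice was re-analysed from the files that the authors deposited, which hold 1 FPKM value for each of 23183 gene symbols in each of 12 libraries. Per the methods and the labels, the authors trimmed reads with FASTX_Trimmer and BBMap, aligned them to mm10 with TopHat, estimated FPKM with Cufflinks and applied a geometric normalization in edgeR; the versions and the annotation are not given in the sources used here. The kit was a directional one per the labels, and whether counting used strand is not given. For the RNA preparation the methods state poly(A) selection after extraction with an RNeasy kit for lipid tissue and the labels state Trizol and total RNA; which holds is not known. No reads or counts were used, so read depth is unknown and counting error could not be stated. No pair of libraries held identical values. No column of per-library values was left unused.

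Groups came from the labels. The 14169 genes that reached 0.5 FPKM in 3 or more of the 6 sham libraries were fitted as log2(FPKM + 1) with limma 3.58.1 in R 4.3.3, using the options for a variance trend and for robust estimation, and every adjusted p is from this fit with Benjamini-Hochberg adjustment over all genes tested. Called genes had an adjusted p under 0.05 and a fold of at least 1.5. Irradiated mice were fitted in the same way, and the interaction of tissue and treatment over all 12 libraries. The exact permutation test of 3 against 3 libraries cannot go below p = 0.1 and was not used.

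Named genes are the 12 in each direction with the largest absolute log2 difference among those with an adjusted p under 0.05, no overlap and a mean of at least 1 FPKM in the higher tissue, and members of 55 gene lists; others are said to be chosen after their values were seen. Some genes that this rule names are not reported here. One list, of mitochondrially encoded genes, matched no symbol. The members and the lists were chosen with earlier results of these data known. Lengths and GC content of transcripts were taken from GENCODE M21 and positions and promoters from RefSeq (GRCm38.p6, the assembly of mm10), with a length for 22809 symbols (98.4%) and a position for 23064. Alternatives were a pseudocount of 0.1, no filter on low values, at least 1 FPKM in every library, quantile normalization, median ratio scaling, limma without trend or robust prior, a loess correction (span 0.3) for length and GC, a replicate block given by the number in the library name, alone and together with that correction, all 12 libraries in 1 fit, an unadjusted p, no fold threshold, the ratio of means as the fold, and each library left out in turn. Python 3.11.15 and matplotlib 3.10.9 were used for the plots.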

Additional observations from a re-analysis of the deposited data

Results flagged for a closer look

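The tissue difference changed with irradiation by the interaction test of limma in 12 genes (adjusted p under 0.05, of 14577 tested), and 5 of them are members of the lists described above. In each of the 5 the change was negative, meaning that the hippocampus stood lower against the cortex in irradiated than in sham mice. *Bdnf*, the neurotrophin, changed by -0.74 (adjusted p = 0.0299), from a log2 difference of 1.14 in sham to 0.40 in irradiated mice; it was listed at 11.7, 13.6 and 12.3 FPKM in hippocampus Con, 10.4, 11.8 and 11.4 FPKM in hippocampus IR, 4.88, 5.195 and 5.30 FPKM in cortex Con and 8.03, 7.80 and 8.89 FPKM in cortex IR. *Egr3*, an early gene, changed by -0.93 (adjusted p = 0.0299), from -0.08 to -1.005. *Homer1*, a postsynaptic scaffold with a short isoform induced by activity, changed by -0.81 (adjusted p = 0.0303), from -0.36 to -1.17. *Nptx2*, an activity-regulated pentraxin, changed by -0.80 (adjusted p = 0.0303), from -0.51 to -1.31. *Ephb3*, a receptor of ephrin-B ligands, changed by -0.61 (adjusted p = 0.0364), from -0.19 to -0.81. With the library number as a replicate block 0 genes passed the limma test, and 1497 had an unadjusted p under 0.05. The cause was not tested.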

How the results depend on the processing

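The numbers of called genes in each tissue stayed within 1.5 times the reported ones in every alternative except that without a fold threshold, which gave 2691 genes higher in the hippocampus and 2456 higher in the cortex in sham mice and 3358 and 3260 in irradiated mice. In sham mice the counts were 770 and 703 with at least 1 FPKM in every library, 1236 and 1308 with a pseudocount of 0.1, 899 and 1048 under median ratio scaling, 1257 and 1341 with the ratio of means as the fold and 976 and 992 with an unadjusted p. Leaving out each library in turn gave 819 to 1004 genes higher in the hippocampus and 869 to 1075 higher in the cortex in sham mice, and 852 to 967 and 926 to 1033 in irradiated mice. The labels number the libraries 1 to 3 in each tissue but do not tie equal numbers to the same mouse, so the numbers were not taken to pair the samples. Deviations of same-numbered cortex and hippocampus Con libraries correlated at 0.058, -0.044 and 0.199, and those of differently numbered ones at -0.224 to 0.142. With 3 libraries per tissue these values cannot decide whether the samples are paired. With the number as a replicate block 964 genes were higher in the hippocampus and 987 in the cortex in sham mice and 951 and 1020 in irradiated mice, and with the length and GC correction as well 932 and 989 in sham mice. The count of genes whose tissue difference changed with irradiation was 15 with a pseudocount of 0.1 and 0 with the replicate block, where limma gave 1497 genes with an unadjusted p under 0.05, against 1500 without it. Of 258 called genes that the text names 228 kept direction and call in every alternative in which they passed the filter (13 to 18 each), 30 lost the call in at least 1, and none reversed. *Kcnj13*, which was not called, changed sign, with a log2 difference of -0.59 to 0.997 with 1 library left out. Low in the other tissue, *Chrm5*, *Dsp*, *Gal*, *Htr4*, *Iyd*, *Lct*, *Lhx9*, *Map3k15*, *Tdo2* and *Trp73* failed the filter when any 1 of the hippocampus libraries was left out and *Ascl5*, *Foxp2*, *Kiss1*, *Ocm*, *Sema3a*, *Snord15b* and *Snord22* when any 1 of the cortex libraries was. Quantile normalization ended the call of *Aqp4*, *Efna3*, *Gja1*, *Grm5*, *Htr2c* and *Syt6* and median ratio scaling that of *Aqp4*, *Fzd7*, *Grm5*, *Htr2c* and *Sncg*. The replicate block ended the call of *Hba-a1*, *Kl*, *Oaz1-ps*, *Rprm* and *Snord15b*. Of 110 counts over lists 45 moved by over 1.5 times or to or from 0 in some alternative, and 42 of these were counts of 5 or fewer. The stricter filter removes genes low in one tissue by construction, which took the layer 6b count in the cortex from 3 to 0. Depth in reads is unknown, so low values such as those of *Gal*, *Trp73* and *Kiss1* carry a counting error that could not be stated.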

Other observations

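Lists of rarer cells and of the matrix add few calls. Of 3 tested genes of Cajal-Retzius cells, which persist in the hippocampus of adult mice, 1 was called, *Trp73*, at 1.09, 1.87 and 1.47 FPKM in the hippocampus and 0.1, 0.114 and 0.303 FPKM in the cortex (log2 difference 1.07, SE 0.14, adjusted p = 0.000291); it stayed under 0.5 FPKM in the cortex and failed the filter when a hippocampus library was left out. *Reln*, reelin, which cortical interneurons also make, was at 9.10, 7.83 and 8.23 FPKM in the hippocampus and 8.23, 9.70 and 10.3 FPKM in the cortex (log2 difference -0.15, SE 0.098, adjusted p = 0.279). Of 4 genes of the claustrum and insula 1 was higher in the hippocampus, *Synpr*, synaptoporin of the mossy fibres, at 72.6, 86.0 and 67.1 FPKM in the hippocampus and 33.6, 30.1 and 28.7 FPKM in the cortex (log2 difference 1.26, SE 0.104, adjusted p = 1.69e-05). None of 11 genes of the extracellular matrix, the nets around fast-spiking cells included, was called (median log2 difference 0.32). Small differences were common among them, since 7 of the 11 had an adjusted p under 0.05 at a fold under 1.5, and 9 were positive. In the alternatives between 0 and 4 were called higher in the hippocampus, 4 with a pseudocount of 0.1 or the ratio of means as the fold. There were 2 without cortex Con 3 and 1 without cortex Con 1 or hippocampus Con 1 or 2. Of 16 clustered histone genes tested 2 (12.5%) were higher in the hippocampus and 2 (12.5%) higher in the cortex, beside 6.78% and 6.97% of all genes tested. The cortical count was 0 with a pseudocount of 0.1 or without cortex Con 2 and 1 without hippocampus Con 2. The mRNAs of these genes mostly lack poly(A) tails.

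The field markers called higher in the hippocampus were not equally low in the 3 cortex libraries. Of 24 such genes 12 had their highest cortex value in cortex Con 3, 8 in Con 2 and 4 in Con 1. For the 20 layer markers called higher in the cortex, the highest hippocampus value fell 6, 7 and 7 times in Con 1, Con 2 and Con 3. *Alas2*, the enzyme of heme synthesis in red blood cells, was at 22.5, 0.860 and 1.09 FPKM in the hippocampus, high in Con 1 alone, against 1.20, 1.37 and 1.65 FPKM in the cortex, while *Hba-a1* was lowest in that same library.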
